A study of Mus musculus with 15 samples.

Results

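The interleukin-1 family and its inflammasome were followed in mouse macrophages through 10 genes: the ligands Il1a, Il1b and Il18, the antagonists Il1rn and Il18bp, the receptor chains Il1r1, Il1r2 and Il1rap, the protease gene Casp1 and the sensor gene Nlrp3. Members were all probes of the authors' normalized value table that the platform annotation assigns to one of these symbols. These were 19 of 25784 probes and stood for 9 of the 13676 genes named on the table. Il1r2, which encodes a decoy receptor, had no probe listed there and is not analysed here. Il1rap had 5 probes, Il1rn 4, Il1a, Il18 and Nlrp3 2 each, and the other 4 genes 1 each.

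Interleukin-1 alpha and interleukin-1 beta bind the receptor IL1R1, which then recruits the accessory protein IL1RAP and signals through MYD88. The antagonist encoded by Il1rn occupies the same receptor without recruiting that partner, and IL18BP captures interleukin-18 in solution. Interleukin-1 beta and interleukin-18 are made as precursors that caspase-1 cleaves after a sensor such as NLRP3 has assembled an inflammasome. In macrophages, Toll-like receptor ligands are known to supply the transcriptional step of this system, called priming, while cleavage needs a further stimulus. The arrays measured mRNA, so neither cleavage nor secretion was measured.

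The cells were peritoneal macrophages elicited with an injection of 3% thioglycollate broth, harvested 4 or 5 days later, selected by adherence and cultured at 5.5 mM glucose in 0.5% serum. Unstim cells (3 arrays) were not loaded and received vehicle, FA cells (4 arrays) were loaded with fatty acid and received vehicle, LPS cells (4 arrays) received bacterial lipopolysaccharide at 10 ng/ml without loading, and FA+LPS cells (4 arrays) received both, in each case for 24 h before RNA extraction. The labels do not state the mouse strain, sex or age, nor which fatty acid was used and how cells were loaded. The 15 arrays came from 4 experiments that the series' design text calls independent, and experiment 2 has no Unstim array here. They lay on 3 slides. Experiments 1, 2 and 3 lay on slides 1, 2 and 3 in that order. Experiment 4 was spread over all of them, with FA on slide 1, LPS and FA+LPS on slide 2 and Unstim on slide 3. The series' title names stored triglyceride and agonists of Toll-like receptors as its subject. Values are log2 signals after background correction and quantile normalization, differences are given with the SE of a limma fit across 24195 probes, and a probe is called where its p, adjusted over all of them, lay below 0.05. A probe counted as above background where it exceeded the 95th percentile of the probes the authors had not retained on that array.

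The 95th percentile of log2 signals was 8.53 to 9.57 on 14 arrays, where 17970 to 18998 retained probes were above background. On FA replicate 1 these values were 7.77 and 15781, and leaving that array out changed no call of a member. Of 8 macrophage markers, 7 were on the table, and Lyz2, Adgre1, Csf1r, Cd14, Itgam and Mertk were above background on every array. In bulk RNA, fewer cells of a type and less RNA per cell cannot be told apart.

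Upstream sequences of 4 members are shown because they carry the contrast described below: Il1a and Il1b had the largest LPS differences of the members, Nlrp3 had a smaller one, and Il18 was not called. Each line gives the 250 bases before an annotated transcription start, 5′ to 3′ on the gene's own strand, from RefSeq on the build GRCm38.p6. All 10 members matched, with 14 windows among them. For Il1a this was chr2:129309973-129310222 on the minus strand, for Il1b chr2:129371140-129371389 on the minus strand, for the first of 2 windows of Nlrp3 chr11:59541319-59541568 on the plus strand and for Il18 chr9:50554450-50554699 on the plus strand. Capitals mark matches, on either strand, to the motifs searched: the NF-kB consensus, the C/EBP motif TTGCNNAA, the PU.1 core GAGGAA, the interferon-stimulated response element and the TATA box TATAAA.
Il1a: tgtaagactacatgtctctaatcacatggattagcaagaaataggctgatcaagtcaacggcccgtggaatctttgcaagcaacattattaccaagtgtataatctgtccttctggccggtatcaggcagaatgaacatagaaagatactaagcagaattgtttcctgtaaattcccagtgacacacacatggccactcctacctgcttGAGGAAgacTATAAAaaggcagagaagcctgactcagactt
Il1b: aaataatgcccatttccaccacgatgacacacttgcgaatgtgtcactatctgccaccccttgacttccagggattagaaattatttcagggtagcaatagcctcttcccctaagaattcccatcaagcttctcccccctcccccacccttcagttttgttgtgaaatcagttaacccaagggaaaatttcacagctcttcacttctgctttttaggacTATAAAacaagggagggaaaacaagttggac
Nlrp3: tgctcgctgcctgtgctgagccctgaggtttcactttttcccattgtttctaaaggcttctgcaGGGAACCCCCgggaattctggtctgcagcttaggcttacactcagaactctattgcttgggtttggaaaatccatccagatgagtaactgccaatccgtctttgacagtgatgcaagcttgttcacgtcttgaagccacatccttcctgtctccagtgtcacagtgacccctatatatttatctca
Il18: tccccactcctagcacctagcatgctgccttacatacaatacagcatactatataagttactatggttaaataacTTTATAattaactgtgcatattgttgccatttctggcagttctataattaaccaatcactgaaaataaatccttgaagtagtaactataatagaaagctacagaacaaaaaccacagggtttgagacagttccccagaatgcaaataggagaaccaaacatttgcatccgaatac
The Il1a window held GAGGAA at positions -41 to -36 and TATAAA at -32 to -27, counted from the start site and not overlapping each other. The Il1b window held TATAAA at -31 to -26. The Nlrp3 window held an NF-kB consensus match, GGGAACCCCC, at -186 to -177. The Il18 window held TTTATA, the TATA box read on the other strand, at -175 to -170. Over 32851 promoter windows of 300 bases, 13.6% held a TATA box match, 28.3% the PU.1 core, 8.46% the NF-kB consensus, 10.8% the C/EBP motif and 3.44% the interferon element. A match is a string of letters and not a site shown to be bound.

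LPS raised both interleukin-1 ligand genes in loaded and in unloaded cells, with no overlap between arrays with and without LPS. Over all tested probes, 26.2% had groups that did not overlap between LPS and Unstim, and 18.5% between FA+LPS and FA. Il1b, for interleukin-1 beta, had 1 probe (ILMN_2777498). Its log2 signals were 5.89, 6.00 and 6.30 on the Unstim arrays of experiments 1, 3 and 4, and 5.93, 5.99, 6.07 and 5.87 on the FA arrays of experiments 1 to 4. They were 13.85, 13.94, 14.01 and 13.81 on the LPS arrays and 13.99, 13.81, 14.01 and 14.17 on the FA+LPS arrays. The 8 arrays with LPS thus formed 1 narrow range far above the other 7, of which only Unstim replicate 4 and FA replicate 3 were above background. Il1b rose by 7.84 ± 0.10 with LPS in unloaded cells (229-fold, adjusted p = 7.84e-16 by limma) and by 8.03 ± 0.09 in loaded cells (262-fold, adjusted p = 1.86e-16). These folds set the LPS arrays against groups mostly at background, with 1 of 3 Unstim and 1 of 4 FA arrays above it. Between FA+LPS and LPS the difference was 0.09 ± 0.09, with a 95% confidence interval from -0.10 to 0.29. In the deposited signals, Il1b lay 0.504 to 0.881 below the brightest probe of each array with LPS and 8.52 to 9.20 below it on the others, so there was little room above it on the scale. Saturation was not tested.

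Il1a, for interleukin-1 alpha, which is active without cleavage by caspase-1, was above background on every array. Its brighter probe (ILMN_1227018) read 8.28, 8.29 and 8.46 in Unstim and 8.10, 7.93, 7.77 and 7.64 in FA. It read 13.79, 13.71, 14.10 and 13.48 in LPS and 13.33, 13.42, 13.99 and 13.71 in FA+LPS. The LPS and FA+LPS ranges overlapped, whereas every FA array lay below every Unstim array. The LPS difference was 5.42 ± 0.16 in unloaded cells (42.9-fold, adjusted p = 2.2e-11 by limma) and 5.75 ± 0.15 in loaded cells (53.9-fold). The dimmer probe (ILMN_1243066) gave 4.94 ± 0.16 (30.7-fold) and 5.20 ± 0.15 (36.7-fold).

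Il18, the other ligand gene, was not called for LPS. Its brighter probe (ILMN_1236517) was above background on all arrays and read 6.83, 6.54 and 6.60 in Unstim, 6.49, 6.54, 6.44 and 6.63 in FA, 6.45, 6.32, 6.64 and 7.13 in LPS and 6.25, 6.31, 6.36 and 6.96 in FA+LPS. All 4 groups overlapped, and the highest values of the arrays with LPS came from experiment 4. The LPS difference in unloaded cells was -0.02 ± 0.18 (adjusted p = 0.972 by limma), with an interval from -0.41 to 0.37. The dimmer Il18 probe (ILMN_1240661) gave 0.17 ± 0.13 (adjusted p = 0.478) and was above background on 7 arrays.

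**Figure D1:**
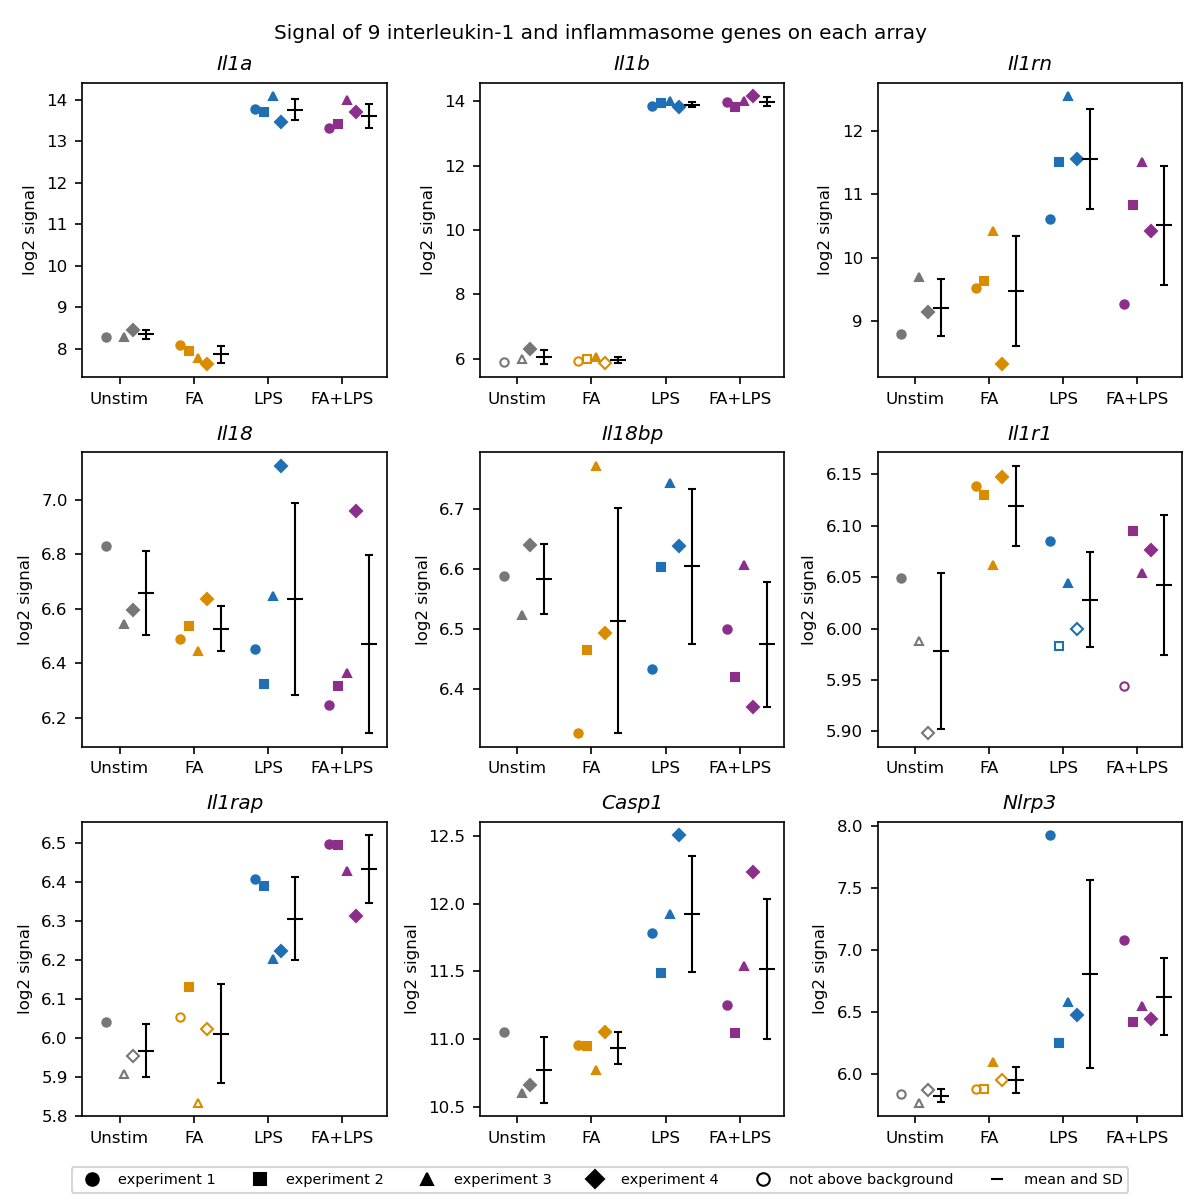
Log2 signal of the brightest tested probe of each of the 9 measured genes on every array, by group (x axis), with the y axis cut to each gene's range. Shapes give the experiment, open symbols an array where the probe was not above background, and the cross with bars the mean and SD of 3 Unstim or 4 other arrays. Il1a and Il1b separate arrays with and without LPS completely, while Il18 and Il18bp overlap in all groups.

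The antagonist gene Il1rn, for the interleukin-1 receptor antagonist, rose with LPS on 3 of its 4 probes in unloaded cells. The brightest probe (ILMN_2682566), annotated to 1 RefSeq transcript, read 8.80, 9.69 and 9.15 in Unstim, 9.52, 9.63, 10.42 and 8.33 in FA, 10.61, 11.51, 12.55 and 11.56 in LPS and 9.28, 10.84, 11.51 and 10.43 in FA+LPS. Every LPS array lay above every Unstim array, but FA and FA+LPS overlapped. The difference between LPS and Unstim was 2.35 ± 0.54 (5.08-fold, adjusted p = 0.00639 by limma). The second probe (ILMN_3072427), annotated to another transcript of the gene, read 8.70, 9.41 and 8.54 in Unstim, 9.27, 9.16, 9.92 and 9.09 in FA, 10.74, 10.92, 12.10 and 12.02 in LPS and 9.89, 9.78, 10.83 and 11.54 in FA+LPS. It rose by 2.56 ± 0.43 with LPS (5.91-fold, adjusted p = 0.000538). Another probe (ILMN_3151270) rose by 0.84 ± 0.18 (adjusted p = 0.00341 by limma), and the dimmest (ILMN_1233093), above background on 3 arrays, measured 0.09 (adjusted p = 0.577). Both are annotated to the same transcript as the second probe.

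In loaded cells the LPS difference of Il1rn did not pass the test on any probe. It was 1.04 ± 0.50 for the brightest probe (adjusted p = 0.213 by limma), 1.15 ± 0.40 for the second (adjusted p = 0.0656) and 0.46 ± 0.17 for ILMN_3151270 (adjusted p = 0.0775). With the experiment as a replicate block, all 3 were called (adjusted p = 0.0232, 0.00751 and 0.021). Leaving out FA+LPS replicate 1 (adjusted p = 0.0425) or FA+LPS replicate 2 (0.0333) was enough for the second probe to be called, and the latter also for ILMN_3151270 (0.0236). Whether the LPS effect itself differed between loaded and unloaded cells was tested with the interaction, which gave -1.31 ± 0.74 and -1.41 ± 0.59 for the 2 brightest Il1rn probes and called neither (each adjusted p = 1), nor with the replicate block (adjusted p = 0.457 and 0.219).

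Il18bp, for the interleukin-18 binding protein, stayed between 6.33 and 6.77 on all 15 arrays, and its groups overlapped. It read 6.59, 6.52 and 6.64 in Unstim and 6.43, 6.60, 6.74 and 6.64 in LPS. Its LPS difference was 0.02 ± 0.10 (adjusted p = 0.944 by limma), with an interval from -0.19 to 0.23.

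Of the receptor chains, the accessory protein gene Il1rap was called with LPS and the ligand-binding chain Il1r1 was not. Both were dim. The brightest Il1rap probe (ILMN_2740465) read 6.04, 5.91 and 5.95 in Unstim, 6.05, 6.13, 5.83 and 6.02 in FA, 6.41, 6.39, 6.20 and 6.22 in LPS and 6.50, 6.49, 6.43 and 6.31 in FA+LPS. It was above background on all 8 arrays with LPS and on 2 of the 7 without it, and these ranges did not overlap. Il1rap rose by 0.34 ± 0.08 with LPS (adjusted p = 0.00789 by limma) and by 0.42 ± 0.07 in loaded cells (adjusted p = 0.000911). Median scaling instead of quantile normalization lost the call in unloaded cells (0.34, adjusted p = 0.0632).

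The other Il1rap probes did not all follow. ILMN_2740464 measured 0.21 in unloaded cells (adjusted p = 0.0853 by limma) and rose by 0.40 ± 0.07 in loaded ones (adjusted p = 0.00117). ILMN_1243228, annotated to a different transcript, was above background on no array without LPS and on all with it, and was called in unloaded cells (0.29 ± 0.09, adjusted p = 0.0431) and in loaded cells (0.35 ± 0.09, adjusted p = 0.0117). Median scaling lost both calls (adjusted p = 0.226 and 0.0623). Its call in unloaded cells depended on the slide term (adjusted p = 0.0519 with that block), and it was lost without Unstim replicate 1 (0.118), Unstim replicate 3 (0.115), Unstim replicate 4 (0.0953), LPS replicate 1 (0.0749), LPS replicate 2 (0.121) or FA+LPS replicate 2 (0.0535). ILMN_1233678, annotated to the same transcript as the brightest probe, measured 0.08 (adjusted p = 0.628 by limma). ILMN_1226650, annotated to the same transcript as ILMN_1243228, was above background on 2 LPS arrays and was not tested.

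Il1r1, the signalling receptor for both interleukin-1 ligands, read 6.05, 5.99 and 5.90 in Unstim, 6.14, 6.13, 6.06 and 6.15 in FA, 6.09, 5.98, 6.04 and 6.00 in LPS and 5.94, 6.10, 6.05 and 6.08 in FA+LPS. It was above background on 10 of 15 arrays. The FA arrays lay above the Unstim arrays, and the other groups overlapped. The LPS difference was 0.05 ± 0.06 (adjusted p = 0.691 by limma), with an interval from -0.07 to 0.17.

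Both inflammasome genes among the members were called with LPS in unloaded cells. Casp1, for the protease caspase-1, was above background on all arrays, at 11.05, 10.60 and 10.66 in Unstim, 10.95, 10.95, 10.77 and 11.05 in FA, 11.78, 11.49, 11.93 and 12.51 in LPS and 11.25, 11.04, 11.54 and 12.23 in FA+LPS. Every LPS array exceeded every Unstim array, while the lowest FA+LPS array lay within the FA range. The difference was 1.16 ± 0.25 (2.23-fold, adjusted p = 0.00436 by limma). In loaded cells it was 0.58 ± 0.23 (adjusted p = 0.119), and it was called there with the replicate block (0.58, adjusted p = 0.038) and when FA+LPS replicate 2 was left out (0.74, adjusted p = 0.0484). Within slide 1 (LPS replicate 1 against Unstim replicate 1) the LPS difference of Casp1 in unloaded cells was 0.73. Within slide 3 (LPS replicate 3 against Unstim replicates 3 and 4) it was 1.30, and slide 2 held no Unstim array.

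Nlrp3, for the sensor that binds caspase-1 through an adaptor, rose unevenly between experiments. Its first probe (ILMN_1237471) read 5.84, 5.77 and 5.88 in Unstim and 5.89, 5.88, 6.10 and 5.95 in FA. It read 7.93, 6.25, 6.59 and 6.48 in LPS and 7.08, 6.43, 6.55 and 6.44 in FA+LPS. Experiment 1 gave the highest value both with LPS and with FA+LPS, and all 8 arrays with LPS exceeded all 7 without it. On this probe no Unstim array was above background, and the fitted LPS difference was 0.98 ± 0.29 (adjusted p = 0.0296 by limma). Without LPS replicate 1 it was 0.61 (adjusted p = 0.00951). The call was lost without Unstim replicate 1 (adjusted p = 0.0796), Unstim replicate 3 (0.0915) or Unstim replicate 4 (0.0754), and with median scaling (0.99, adjusted p = 0.117).

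In loaded cells the Nlrp3 difference was 0.67 ± 0.27 and not called (adjusted p = 0.123 by limma). It was called with the replicate block (adjusted p = 0.0473), with a slide block (0.83, adjusted p = 0.0174) and when LPS replicate 1 was left out, an array outside that comparison which enters the common spread (0.67, adjusted p = 0.00171). The second Nlrp3 probe (ILMN_2629297) measured 0.61 ± 0.25 in unloaded cells (adjusted p = 0.114), also with no overlap between LPS and Unstim, and 0.45 ± 0.23 in loaded cells (adjusted p = 0.242). With the replicate block it was called in unloaded cells (0.66, adjusted p = 0.0271). With the slide block it was called in unloaded (0.71, adjusted p = 0.0296) and in loaded cells (0.58, adjusted p = 0.0448). Of 22 alternatives, 19 left it not called in unloaded cells and 20 in loaded cells. Within slides, the first probe differed by 2.08 on slide 1 and by 0.76 on slide 3 between LPS and Unstim. On slide 1 this compares the LPS and Unstim arrays of experiment 1 only, so it is not a separate check.

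**Figure D2:**
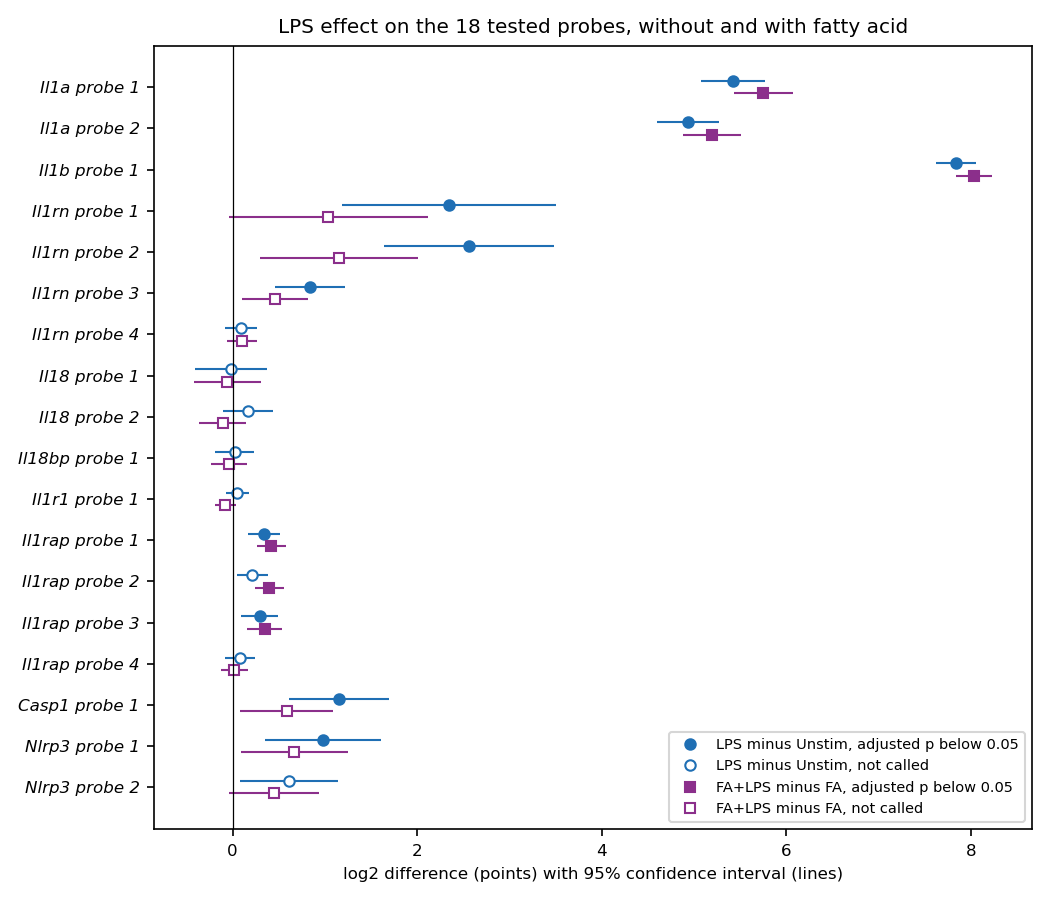
LPS differences (x axis, log2) of the 18 tested member probes (y axis, probes of a gene numbered in the order of the text) in unloaded cells (circles, LPS minus Unstim, 4 against 3 arrays) and in loaded cells (squares, FA+LPS minus FA, 4 against 4 arrays). Lines are 95% confidence intervals, and filled symbols have an adjusted p below 0.05. Both comparisons have Il1b and Il1a far to the right, and the intervals of Il18, Il18bp and Il1r1 cross zero.

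Counted by the brightest probe, 6 of the 9 genes were higher with LPS in unloaded cells and none was lower. The brightest probe was chosen by its mean over all 15 arrays, those with LPS included. On Unstim arrays another Nlrp3 probe (ILMN_2629297, 6.02 against 5.83) and another Il1rap probe (ILMN_1233678, 6.01 against 5.97) were brighter. Neither of these was called with LPS in unloaded cells (adjusted p = 0.114 and 0.628 by limma) or in loaded cells (0.242 and 0.909). Of all 24195 probes tested in that comparison, 17.9% were called, 7.68% as higher. Counted by gene, 21.4% of 12984 were called, 8.62% as higher. The members' median difference was 0.98, against -0.01 over all genes. In loaded cells 3 genes, Il1a, Il1b and Il1rap, were higher and none lower, beside 16.3% of all probes called and 7.23% higher, or 19.2% of genes called and 8.08% higher. With the replicate block 6 were higher there. Over all 24195 probes that block called 2276 as higher and 2759 as lower, against 1749 and 2183 without it. The members' median without the block was 0.58. Il1b, Il1rap and Nlrp3 were above background mostly on arrays with LPS and passed the filter on dim probes largely through them, so these counts and medians describe the genes and do not support a difference. In the comparison of FA+LPS with Unstim, which shares its arrays with the comparisons above, Il1a (5.27), Il1b (7.94 ± 0.10, 245-fold) and Il1rap (0.46, adjusted p = 0.000868) were higher, beside 14.8% of all probes called and 7.32% of genes higher. The replicate block raised the count of member genes to 6 as well. It also raised the calls over all probes, from 1529 to 2032 as higher and from 2056 to 2639 as lower. Median scaling turned the balance of calls over all probes from 42.9% higher to 63.4% higher in unloaded cells and from 44.5% to 76.9% in loaded cells. Under it, Il1a, Il1b, Il1rn and Casp1 kept their calls in unloaded cells.

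Fatty acid without LPS called no member. Over all probes 1 of 24195 (0.00413%) was called in that comparison, and 684 had an unadjusted p below 0.05. These 684 are a smaller share of the probes than the 0.05 that no effect would give on average. The brighter Il1a probe differed by -0.49 ± 0.16 between FA and Unstim with no overlap (adjusted p = 1 by limma), where 4.65% of all probes had groups that did not overlap. Its differences within experiments 1, 3 and 4 were -0.19, -0.52 and -0.82, and the other Il1a probe also was lower in all 3. In experiment 4 the FA and Unstim arrays lay on different slides, which holds for every probe. Among all probes, 13% were lower in all 3 experiments. Il1r1 differed by 0.14 ± 0.06 and the first Nlrp3 probe by 0.13, both without overlap and both with adjusted p = 1. Il1rn was higher with fatty acid in all 3 experiments on its second probe (0.57, 0.51 and 0.55), whereas the brightest probe was lower in experiment 4. Among all probes, 11.7% were higher in all 3 experiments.

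Fatty acid in the presence of LPS called no member either, beside 0.521% of all probes called (2035 with an unadjusted p below 0.05). The widest differences were those of Il1rn. FA+LPS was below LPS by 1.33, 0.67, 1.05 and 1.13 in experiments 1 to 4 on the brightest probe, a direction shared by all 4. On the second probe the differences were -0.85, -1.14, -1.28 and -0.47. The fitted values were -1.04 ± 0.50 (interval from -2.12 to 0.03, adjusted p = 0.613 by limma) and -0.93 ± 0.40 (adjusted p = 0.513). These SEs and that interval leave out the pairing of arrays by experiment. With the replicate block, which includes it, the SEs were 0.30 and 0.27. The adjusted p was then 0.106 and 0.114, which also called neither. Casp1 was lower in all 4 experiments, by -0.53, -0.45, -0.38 and -0.27, with a fitted difference of -0.41 ± 0.23 (adjusted p = 0.746, or 0.403 with the block). Il1rap was higher in all 4 on its brightest probe (0.09, 0.11, 0.22 and 0.09) and on ILMN_2740464, which measured 0.24 ± 0.07 (adjusted p = 0.229).

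In all, 5 of the 18 tested member probes were lower with FA+LPS than with LPS in every experiment: 2 of Il1rn, both of Il18 and that of Casp1. Another 2 probes, both of Il1rap, were higher in every experiment. Over all tested probes, 11.5% were lower and 12.1% higher in every experiment. Il1b went in different directions (0.14, -0.12, 0 and 0.36), as did Il1a (-0.45, -0.29, -0.11 and 0.23) and Nlrp3 (-0.84, 0.17, -0.04 and -0.03). The interaction called no member, beside 0.0248% of all probes.

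**Figure D3:**
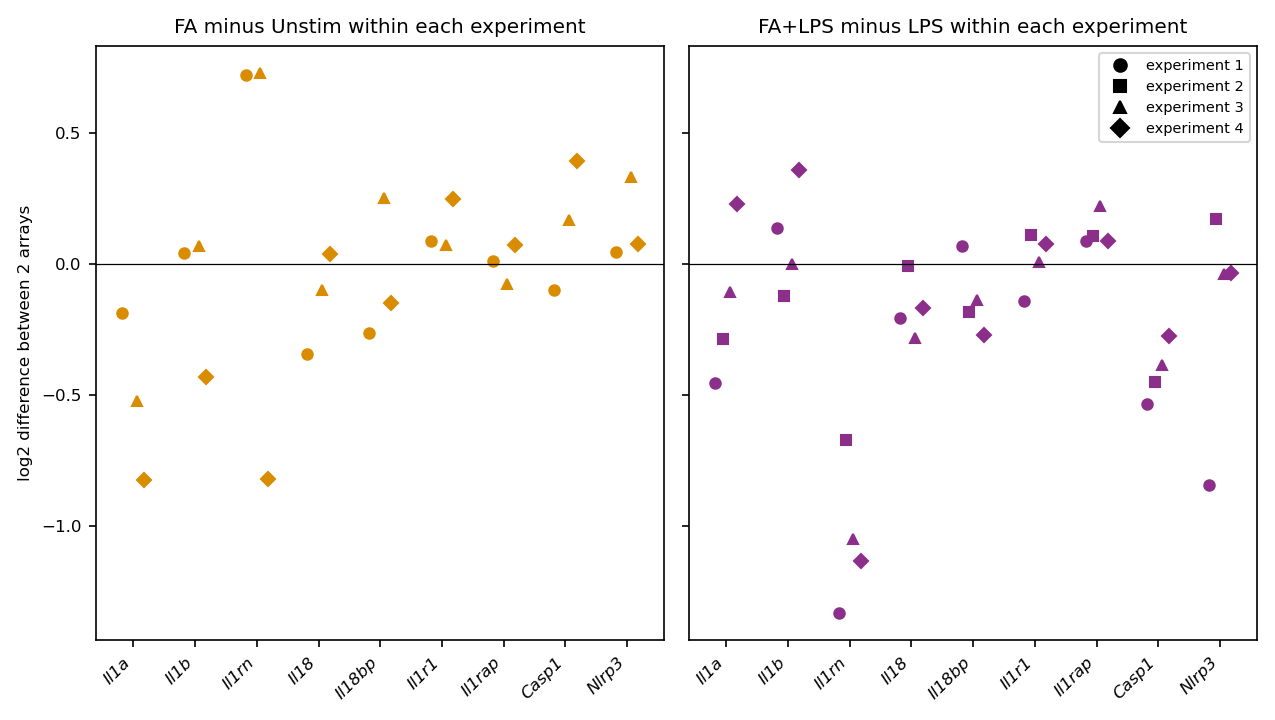
Log2 differences between 2 arrays of the same experiment (y axis) for the brightest probe of each measured gene (x axis), for FA minus Unstim in experiments 1, 3 and 4 (left) and FA+LPS minus LPS in experiments 1 to 4 (right). Each point is 1 experiment. In experiment 4 the FA and Unstim arrays lay on different slides. On the right, all 4 points of Il1rn and of Casp1 lie below zero and all 4 of Il1rap above it, and on the left all 3 of Il1a lie below zero.

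**Figure D4:**
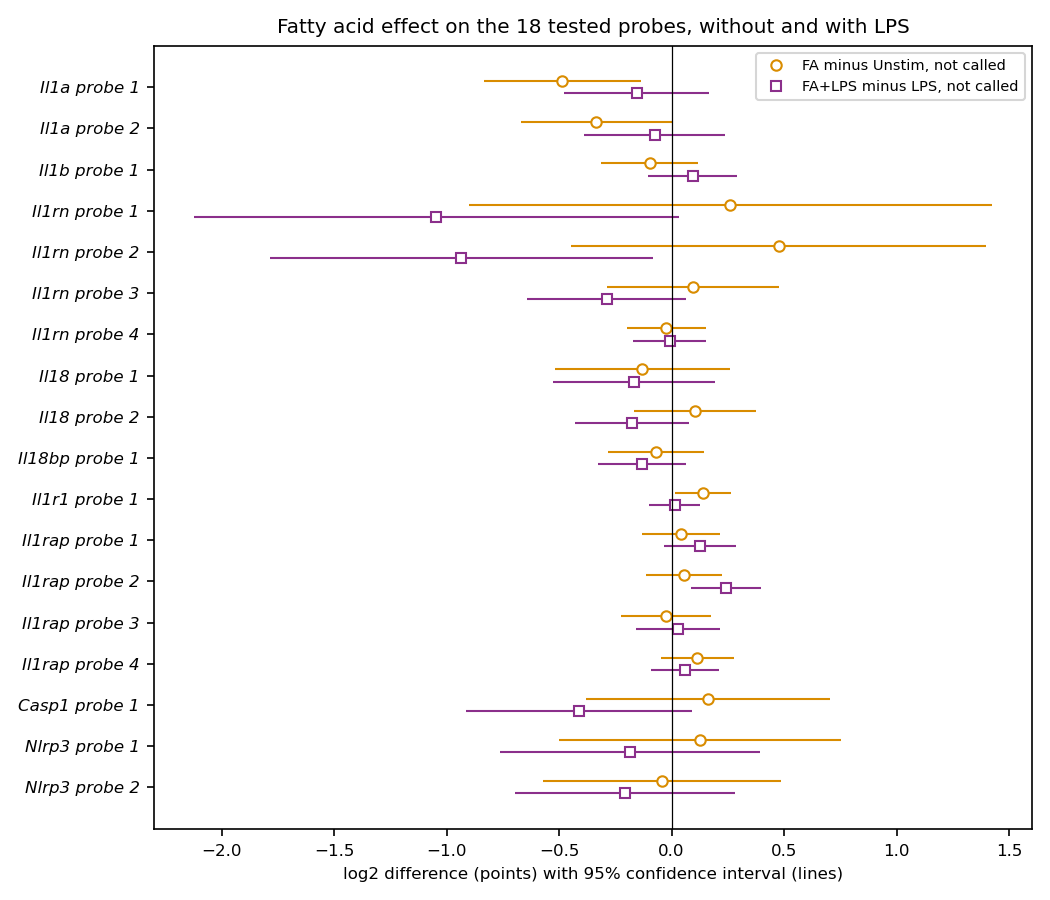
Fatty acid differences (x axis, log2) of the 18 tested member probes (y axis) without LPS (circles, FA minus Unstim, 4 against 3 arrays) and with LPS (squares, FA+LPS minus LPS, 4 against 4 arrays). Lines are 95% confidence intervals of the fit without a replicate block, and no probe was called. The 2 brightest Il1rn probes have the widest intervals, and that of Il1b with LPS runs from -0.10 to 0.29.

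Genes that act beside the members were read by their brightest tested probe. Of all 12984 genes, 21.4% were called with LPS in unloaded cells (8.62% higher) and 19.2% in loaded cells (8.08% higher). Of 12 interleukin-1 receptor signalling genes, 11 were measured, 5 were higher with LPS in unloaded cells and none lower (median 0.21). The inhibitory kinase gene Irak3 rose by 2.11 ± 0.17 (4.33-fold, adjusted p = 3.75e-07 by limma), the ubiquitin ligase gene Traf6 by 0.75 ± 0.17 (adjusted p = 0.0046), the adaptor gene Myd88 by 0.65 ± 0.20 (0.0319), the ubiquitin ligase gene Peli1 by 0.55 ± 0.11 (0.0026) and the kinase gene Irak2 by 0.50 ± 0.14 (0.0215). Myd88 lost its call without LPS replicate 3 (adjusted p = 0.0875), LPS replicate 4 (0.089) or any single Unstim array (0.0626 to 0.108). Irak2 lost it with slide as a block (0.0629) and without Unstim replicate 1 (0.0594) or 3 (0.0998). In loaded cells, Irak3 (2.43 ± 0.15) and Peli1 (0.38 ± 0.10, adjusted p = 0.0177, or 0.0599 without FA+LPS replicate 4 and 0.0626 with median scaling) were higher.

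Of 13 other inflammasome sensors and adaptors, 6 were measured, with a median LPS difference of 0.11 in unloaded cells. There 1, the pyrin gene Mefv, was called, as higher (0.99 ± 0.14, adjusted p = 0.000137 by limma), beside 21.4% of all genes called and 8.62% higher. Mefv was above background on 1 Unstim array, no FA array and every array with LPS. It passed the filter on dim probes through the arrays with LPS, so its calls describe the gene and do not support a difference. The adaptor gene Pycard, whose protein links NLRP3 to caspase-1, measured -0.09 ± 0.15 (adjusted p = 0.791), and the DNA sensor gene Aim2 0.02 ± 0.09 (adjusted p = 0.929). In loaded cells Nlrc4 (0.80 ± 0.13, adjusted p = 0.000476), Mefv (0.72 ± 0.13) and Naip2 (0.47 ± 0.13, adjusted p = 0.0157) were higher, beside 8.08% of all genes. NLRC4 and NAIP proteins form the inflammasome that senses bacterial flagellin and secretion systems. The Naip2 call was lost without FA replicate 1 (0.0556), FA replicate 3 (0.0558) or FA+LPS replicate 2 (0.0528), and with median scaling (0.155). That LPS acted differently on these genes in loaded cells was not shown, as the interaction called none.

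Of 8 inflammasome effectors and modulators, all were measured. With LPS, 3 were higher and 1 lower in unloaded cells, beside 21.4% of all genes called there and 19.2% in loaded cells. Casp4, for the caspase that binds cytosolic LPS, rose by 2.54 ± 0.26 (5.82-fold, adjusted p = 4.53e-06 by limma). Gsdmd, for the pore-forming gasdermin D that caspases cleave, rose by 0.97 ± 0.16 (adjusted p = 0.000458) and Casp8 by 0.39 ± 0.12 (adjusted p = 0.0442). The Casp8 call was lost in 13 of 23 alternatives, among them the slide block (adjusted p = 0.0793) and leaving out any single Unstim array (0.054 to 0.187). Serpinb1a, for an inhibitor of neutrophil proteases and inflammatory caspases, fell by 0.93 ± 0.19 (adjusted p = 0.0024). In loaded cells Casp4 (1.99 ± 0.24) and Gsdmd (0.80 ± 0.15) were higher and Serpinb1a (-1.10 ± 0.17) and the thioredoxin-binding gene Txnip (-1.34 ± 0.35, adjusted p = 0.0162) lower. Txnip lost its call without FA replicate 3 (adjusted p = 0.0517) and with median scaling (-0.75, adjusted p = 0.44). With median scaling, the calls of Myd88, Irak2, Peli1, Casp8, Gsdmd (adjusted p = 0.0556) and Serpinb1a (adjusted p = 0.0581) in unloaded cells were lost. Of 6 other interleukin-1 family ligands and 5 other receptors, 1 each was matched to a probe, Il1f10 (0.06) and Il1rl2 (0.17), and neither was called. The rest had no matching symbol in the annotation, which does not show that the array lacked probes for them. No gene of these lists was called for fatty acid, with or without LPS.

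**Figure D5:**
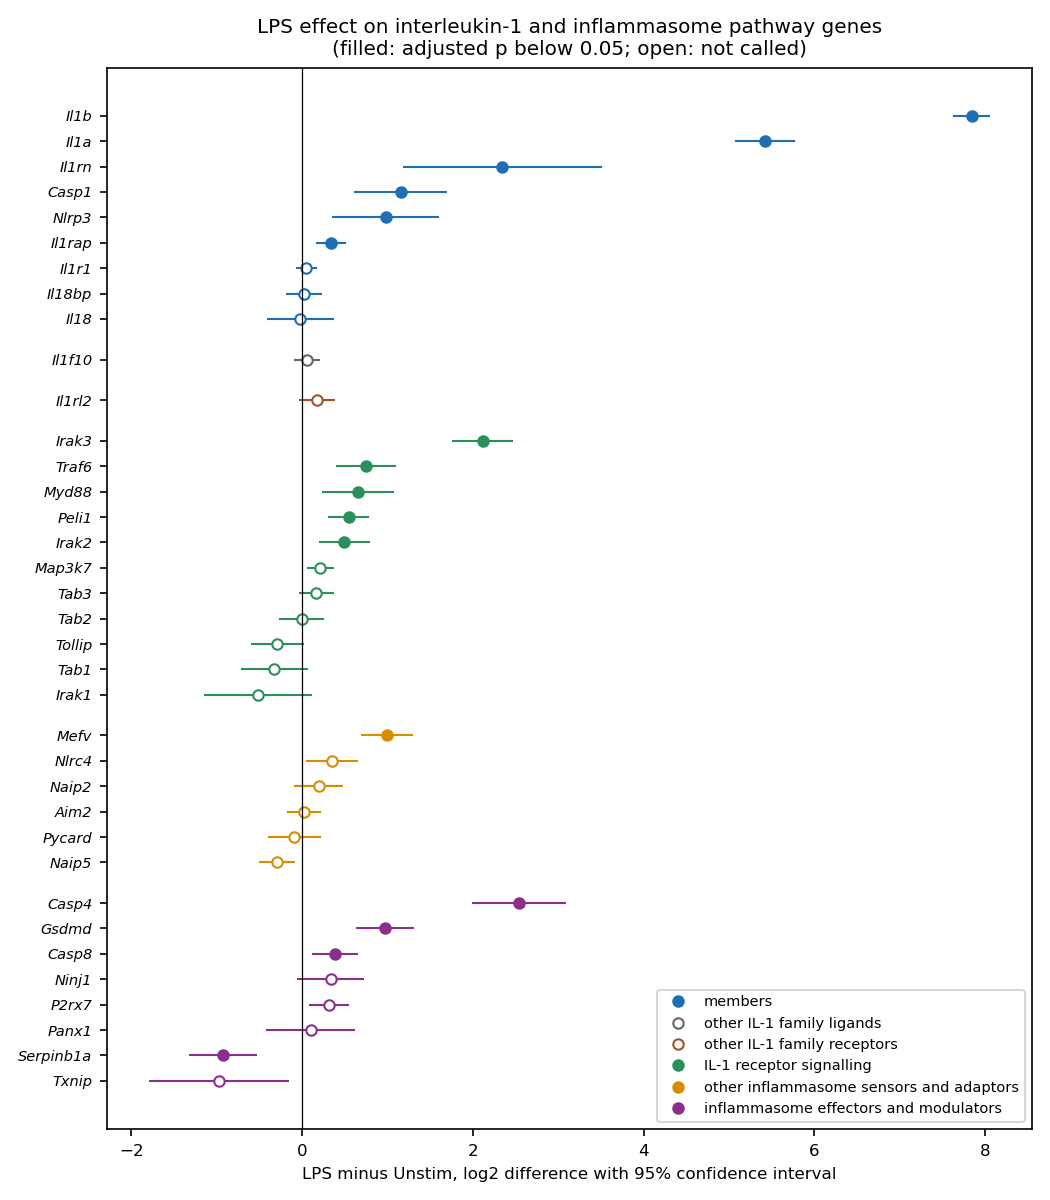
LPS minus Unstim difference (x axis, log2, 4 against 3 arrays) of the 9 members and of the measured genes of 5 pathway lists (y axis, brightest tested probe of each), with 95% confidence intervals. Filled symbols have an adjusted p below 0.05. Outside the members, Casp4 and Irak3 lie furthest to the right, and Serpinb1a is the filled symbol left of zero.

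The genes most alike in profile were sought among 12983 others by the root mean square difference of their log2 signals over the 15 arrays, each centred on its own mean. For Il1b these were Fpr2 (0.633), which encodes a formyl peptide receptor, H2-M2 (0.697) and the chemokine gene Ccl5 (0.819). For Il1rn they were Gch1 (0.629), Slc28a2 (0.641) and Tmem248 (0.643), and for Nlrp3 Srprb (0.189), Bak1 (0.193) and Hgs (0.203).

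Markers of other cells were read beside these results. Of 9 neutrophil markers, 6 were on the table, and their summed linear signal ran from 623.5 to 732.1 in Unstim, 654.4 to 728.7 in FA, 896.3 to 1319 in LPS and 1342 to 2238 in FA+LPS. S100a8, the brightest of the 6, averaged 8.39 in Unstim, 8.43 in FA, 9.49 in LPS and 10.59 in FA+LPS. The sums therefore mostly follow this gene. It rose by 1.09 with LPS (adjusted p = 0.00216 by limma) and was also higher in FA+LPS than in LPS (1.11 ± 0.20, adjusted p = 0.0211). Elane averaged 6.16, 6.12, 6.18 and 6.16 in the same order and was not called with LPS in unloaded cells. With LPS in unloaded cells Camp measured 0.33 (adjusted p = 0.0164 by limma), while Ltf fell by 0.53 (adjusted p = 0.00439). Camp was above background on no Unstim or FA array, on 2 LPS arrays and on 4 FA+LPS arrays. It passed the filter on dim probes only through arrays with LPS, so its call does not support a difference. Mpo and Cxcr2 were above background on no more than 2 arrays of any group, and Ly6g, S100a9 and Ngp were not on the table. Of 6 mesothelial and fibroblast markers, 4 were on the table, with summed signals of 298.5 to 325.1, 293.8 to 327.9, 599.3 to 845.1 and 517.8 to 940.2 in the same order. Dcn rose by 2.26, and the other 3, Col1a1 (0.05), Msln (0.05) and Upk3b (-0.16), were not called. The summed signal of the 7 macrophage markers ran from 24120 to 26430, 23790 to 26490, 18850 to 26320 and 21160 to 35110. Of these 7, Cd14 (1.88), Adgre1 (1.81) and Fcgr1 (1.06) rose with LPS, and Mertk (-0.85) and Lyz2 (-0.71) fell. None of the 3 dendritic cell, 2 B cell and 1 eosinophil and mast cell markers on the table was called with LPS, and none of 5 T and NK cell markers was on it. The part of other cells in the LPS differences of the members was not tested.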

How the data were processed

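From 15 single-colour Illumina arrays the authors deposited log2 signals of 45281 probes without normalization between arrays, and normalized log2 values for 25784 of these. The value table equalled a quantile normalization of the former over the retained probes to within 0.000949. The software, or any earlier background treatment, is not given in the sources used here, and no detection p-values were used.

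Deposited signals were returned to the linear scale, corrected with normexp (offset 50), quantile-normalized over all probes and fitted probe by probe in limma (version 3.58.1, R 4.3.3; lmFit, eBayes) with group as the only term (11 residual and 3.26 prior degrees of freedom). Retained probes above background on at least 3 arrays were tested (24195). P-values were 2-sided, with Benjamini-Hochberg adjustment across all tested probes. The brightest tested probe stood for a gene in counts. The platform annotation gave 1 symbol for 21476 retained probes, several for 10 and none for 4298. Listed genes whose symbol could not be matched, for example older symbols of the Il36 genes, are counted as not on the table.

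Comparisons were LPS with Unstim, FA with Unstim, FA+LPS with FA, with LPS and with Unstim, and the interaction. Comparisons that share a group share its arrays. Experiment numbers come from the labels, and the design text calls the experiments independent. Deviations from group means correlated at a median of 0.222 between arrays of the same experiment (21 pairs, -0.0122 to 0.771) and -0.0701 between different ones (63 pairs). Between LPS and FA+LPS of the same experiment the correlations were 0.771, 0.691, 0.568 and 0.704 in experiments 1 to 4. Pairs with an Unstim array of the same experiment reached at most 0.222. The fit with a replicate block is therefore given where it changed a call. No p-value here is exact, and the number of arrays limits precision. On simulated data for LPS minus Unstim (24195 probes), 62% of 1.5-fold, 94% of 2-fold and 100% of 4-fold changes were recovered. Of the probes called, 4.3% were false. For FA+LPS minus LPS these shares were 78%, 96% and 100%, with 6.03% of calls false, and for FA minus Unstim 66%, 100% and 100%, with 4.19%. The shares pool simulated probes and need not hold for a probe of wide spread. The brightest Il1rn probe, for example, had an SE of 0.50 for FA+LPS minus LPS. Alternatives were the authors' table, median scaling, offset 16, no filter, 1 probe per gene, both blocks, a trended robust prior, values within slides and leaving out each array.

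The text names all member probes, up to 5 called genes of each pathway list for LPS against Unstim with those called in loaded cells, and the 3 genes most like Il1b, Il1rn and Nlrp3. Members, lists and rules were chosen with earlier results of these data known. The TATA box was added after the sequences were seen, and values within slide 2 after the data were seen.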

Additional observations from a re-analysis of the deposited data

Results flagged for a closer look

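Among 57 groups of 4 arrays for the member probes, 3 had 1 array far from the other 3 by Dixon's criterion (a gap over range above 0.829), where chance gives about 1 in 20. The brighter Il18 probe (ILMN_1236517) measured 6.957 on FA+LPS replicate 4, against 6.246 to 6.362 on the other FA+LPS arrays (0.836). The second Nlrp3 probe (ILMN_2629297) measured 7.518 on LPS replicate 1, against 6.26 to 6.44 on the others (0.857), and 6.921 on FA+LPS replicate 1, against 6.185 to 6.298 (0.847). Both Nlrp3 arrays came from experiment 1. Without LPS replicate 1, that probe differed by 0.32 between LPS and Unstim (adjusted p = 0.188 by limma), against 0.61 with it. Without FA+LPS replicate 1 it differed by 0.28 between FA+LPS and FA (adjusted p = 0.529). The causes were not tested.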

How the results depend on the processing

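No called difference of a member probe changed direction in any alternative, within slides included. Median scaling called fewer probes: 6.14% (1486) for LPS against Unstim, 5.91% (1430) for FA+LPS against FA, 0.0413% (10) for FA+LPS against LPS, 4.85% (1173) for FA+LPS against Unstim and 0 for the interaction. Member genes called for FA+LPS against Unstim numbered 5 with offset 16, 6 with a replicate block and 5 with slide as a block, against 3. Over all probes these settings called 1580, 2032 and 1644 as higher, against 1529. As lower they called 1995, 2639 and 2212, against 2056. For FA+LPS against FA the member genes called numbered 6 with the replicate block, which called 2276 probes as higher and 2759 as lower. That block also called 1.77% (428) of probes for FA+LPS against LPS and 0.0827% (20) for the interaction. Besides the calls it added in the comparisons of LPS-treated with untreated cells, it changed no call of a member in FA against Unstim, FA+LPS against LPS or the interaction. With slide as a block these shares were 0.831% (201) for FA+LPS against LPS and 0.00413% (1) for the interaction, which reached 0.0372% (9) with a trended prior. With 1 probe per gene, 0.0077% were called for FA against Unstim and 0.0462% for the interaction.

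When each array was left out in turn, the share called ran from 13.9% to 18.6% for LPS against Unstim, from 0.00413% to 0.00827% for FA against Unstim (the latter without Unstim replicate 3), from 14.1% to 17% for FA+LPS against FA, from 0.273% (66, without FA+LPS replicate 2) to 0.839% (203, without FA+LPS replicate 4) for FA+LPS against LPS, from 11.1% to 15.6% for FA+LPS against Unstim and from 0.00413% to 0.103% (25, without FA+LPS replicate 4) for the interaction. Member genes called ran from 5 to 6, 0 to 0, 3 to 4, 0 to 0, 3 to 4 and 0 to 0 in the same order. For FA+LPS against Unstim, the second Il1rn probe (1.63 ± 0.43, adjusted p = 0.0176 by limma) lost its call without Unstim replicate 1 (0.071) or 4 (0.0883). The cause of these shifts was not tested. Dim members (Il1r1, Il1rap, Nlrp3 and the dimmer Il1rn and Il18 probes) lie near background, where signals are compressed and differences understated. Il1b lies near the top of the scale with LPS. The 3 Unstim arrays limit the comparisons that use them.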

Other observations

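The promoter windows of the other members held few of the motifs searched. On GRCm38.p6, Il18bp had a C/EBP match, TTGCGGAA, at positions -49 to -42, and the first Il1r1 window had another, TTGCTGAA, at -133 to -126. The second Il1r1 window had an NF-kB consensus match on the other strand, GGAATGCCCC as read on the gene's strand, at -232 to -223. Casp1 had the PU.1 core on the other strand at -108 to -103, and the second Nlrp3 window had 3 matches to that core. In the Il1rap window the interferon-stimulated response element matched as GAAAAAGAAA at 20 to 29 after the start, and in the third Il1rn window a TATA box lay on the other strand at 14 to 19. These are matches of letters only.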
